A study of Mus musculus with 56 samples.

Results

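The transcripts described here belong to 9 genes of antigen presentation and the interferon response. They were chosen by name and looked up by symbol in a table of 24410 Ensembl gene IDs, and each of the 9 symbols matched 1 ID. Ifitm1, Ifitm2 and Ifitm3 encode interferon-induced transmembrane proteins, which restrict the entry of viruses at membranes. H2-K1 and H2-D1 encode heavy chains of classical MHC class I molecules, and B2m encodes beta-2-microglobulin, the light chain that every classical class I molecule needs to reach the cell surface. Tap1 encodes a subunit of the transporter that carries peptides into the endoplasmic reticulum, and Tapbp encodes tapasin, which holds empty class I molecules at that transporter. Irf1 encodes a transcription factor induced by interferon gamma that acts on class I and antigen processing genes.

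All cells came from colon tumors of 1 male ApcMin/+ mouse, which carried a truncating mutation of the Wnt pathway inhibitor gene Apc. From the age of 10 weeks the mouse drank 2% dextran sulfate sodium for 5 days, which damages the lining of the colon. At 12 weeks 3 tumors were dissociated and mixed, and single cells were sorted as DAPI-Cd31-Cd45-Epcam+Cd24+, that is living, neither endothelial nor leukocyte, and epithelial. A PCR of 32 cycles screened the cDNA for Lgr5, a receptor gene of intestinal stem cells, and positive cells were sequenced by a bead-based single-cell method (Bead-seq). The tumor of origin of a cell was not recorded in the labels, and there was 1 group, with no untreated mouse and no normal epithelium. Cells of 1 mouse are not replicates of a condition, so the values below carry no test and no p-value.

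The 56 libraries held 6 pairs whose profiles agreed at Pearson's r from 0.957 to 0.992, against 0.782 for the next pair. After the mean of each such pair was taken as a single cell, 50 cells remained. Values are TPM, transcript abundances that are corrected for length and scaled to a common total, so that no read depth is kept. Genes with 1 TPM or more count as seen, and there were between 1316 and 7234 of them in a cell, with a median of 5902.5. The cell with 1316 genes stood apart, since the next had 3151, and 1 transcript, Gm10925, made up 85.15% of its TPM. Epithelial identity was plain from Epcam, Krt8 and Cldn7, which were seen in 50 of 50 cells, with medians of 339.7, 1826 and 721.6 TPM, although the intestinal factor Cdx2 was seen in 2 cells. Of 12 immune markers 5 were seen in no cell, against 42.5% of all genes, among them Ptprc, which encodes CD45 and reached at most 0.34 TPM, and Cd3e and Nkg7 were listed at 0 throughout. Csf1r was the most frequent of them, in 21 cells with at most 18.4 TPM, and the summed level of the 12 ran from 0 to 246.4 TPM with a median of 1.53. Of 6 endothelial markers 4 were seen in no cell, against 42.5% of all genes, among them Pecam1, which encodes CD31. The sum of the 6 reached at most 13.3 TPM. Of 7 fibroblast markers 4 were seen in no cell, against 42.5% of all genes, and these were listed at 0 throughout. However, Pdgfra and Acta2 were seen in 25 and 23 cells, and the sum ran from 0 to 147.9 TPM with a median of 3.69.

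In mammals interferons bind paired receptors at the cell surface, and JAK kinases and STAT factors carry the signal to genes with interferon response elements. Interferon gamma also acts through gamma-activated sites, 1 of which the Irf1 promoter carries. Class I heavy chain promoters are known for an enhancer with an NF-kappaB site next to an interferon response element. In the intestine, Ifitm genes are also known as transcripts that are abundant in Wnt-driven tumors.

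Promoter sequence was read from RefSeq windows of the build GRCm38.p6, each running from 250 bases before to 50 bases after a transcript start, and all 9 genes had at least 1 window. Positions count from the transcript start, at 1, and 4 sequence motifs were searched on both strands. The H2-K1 and H2-D1 stretches are shown because both hold the 10-letter NF-kappaB sequence GGGATTCCCC, in capitals, and 79 of their 80 bases are the same. H2-K1 lies at chr17:34000408-34000487 on the minus strand and H2-D1 at chr17:35262894-35262973 on the plus strand.
H2-K1: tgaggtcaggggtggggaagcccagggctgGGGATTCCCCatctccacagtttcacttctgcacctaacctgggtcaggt
H2-D1: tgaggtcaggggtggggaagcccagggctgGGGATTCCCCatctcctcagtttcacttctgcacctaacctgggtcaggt
The letters of that NF-kappaB sequence were copied from the H2-K1 window, so the match in H2-K1 was set in advance. The match in H2-D1 follows from its near identity to H2-K1. In all, the sequence was in 28 of 32851 RefSeq promoter windows, or 0.0852%, and that of Irf1 was also among them. Irf1 is shown for its pair of motifs at chr11:53769914-53770013 on the plus strand, a gamma-activated site core (TTCNNNGAA) and the NF-kappaB sequence on the other strand, both in capitals.
Irf1: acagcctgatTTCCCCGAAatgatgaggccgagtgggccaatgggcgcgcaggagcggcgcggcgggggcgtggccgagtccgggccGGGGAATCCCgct
The gamma-activated site core was in 8.30% of all windows and also in that of Ifitm3. The core of the interferon-stimulated response element (GAAANNGAAA) was in 3.44% of windows. B2m held it 1 time, Ifitm2 1 time and Ifitm3 2 times, and these stretches are shown with it in capitals, at chr2:122147527-122147586 (plus), chr7:140955982-140956021 (minus) and chr7:141010715-141010744 (minus).
B2m: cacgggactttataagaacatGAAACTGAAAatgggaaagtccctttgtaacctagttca
Ifitm2: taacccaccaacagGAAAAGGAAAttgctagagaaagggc
Ifitm3: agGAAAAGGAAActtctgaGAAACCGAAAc
Ifitm1 held neither response element core. It is shown for 1 copy of TCAAAG, the core bound by TCF/LEF factors, at chr7:140967846-140967885 on the plus strand, where this core was in 16% of all windows and also in that of Tapbp.
Ifitm1: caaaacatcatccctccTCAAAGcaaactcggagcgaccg
The Tap1 window held none of the 4 motifs. Only these letters were searched, so response elements spelled otherwise, in H2-K1, H2-D1, Tap1 or any other member, would be missed. A match to these letters is a description of the sequence and not evidence of a bound site.

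Among the 9 genes, 7 were seen in 45 or more of the 50 cells and 8 in 25 or more, against 6.65% and 22.6% of all 24410 genes. The medians ran from 7735 TPM for Ifitm3, rank 14 among all genes, to 0 for Tap1.

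**Figure D1:**
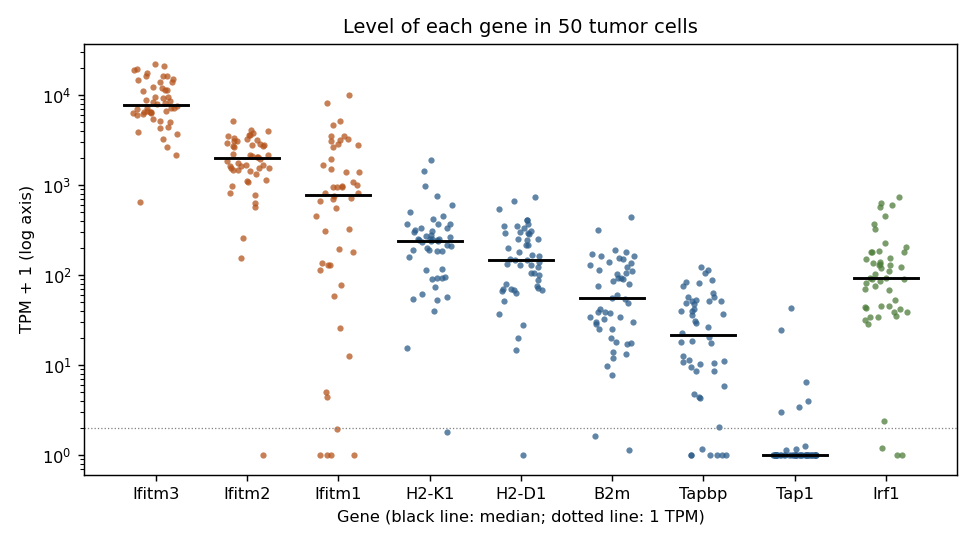
TPM + 1 on a log axis for the 9 genes in each of the 50 tumor cells, with IFITM genes in orange, class I genes in blue and Irf1 in green. Points are cells, the black line is the median, and the dotted line marks 1 TPM. Ifitm3 lies between 650.1 and 22380 TPM in all 50 cells, Ifitm1 spreads from 0 to 9896 TPM, and Tap1 is at 0 in 41 cells.

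The IFITM genes were the most abundant. Ifitm3 (ENSMUSG00000025492, GRCm38 chr7:141009586-141010770, minus strand) had 650.1 TPM in the lowest cell, 7735 TPM in the median cell and 22380 TPM in the highest. It was at 1000 TPM or more in 49 cells and was the only one of the 9 genes that was abundant in the cell with few genes, at 2164 TPM. Ifitm2 (ENSMUSG00000060591, chr7:140954837-140955987, minus strand) had 0, 2001 and 5087 TPM in the lowest, median and highest cell and was at 1000 TPM or more in 42 cells. The single cell with Ifitm2 listed at 0 was the one with few genes. Ifitm1 (ENSMUSG00000025491, chr7:140967221-140969825, plus strand) had 0, 781.6 and 9896 TPM, and was the most uneven of the 9 genes. It was under 100 TPM in 11 cells, 4 of them listed at 0, and above 5000 TPM in 3.

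Ifitm3 exceeded Ifitm2 and Ifitm1 in each of the 50 cells, by a median of 2.02 and 3.53 on the log2(TPM + 1) scale. Ifitm2 exceeded Ifitm1 in 37 cells and was lower in 12. Together the 3 transcripts made up 0.0920% of all TPM in the lowest cell, 1.09% in the median cell and 3.03% in the highest. Ifitm3 supplied between 51% and 100% of that sum, with a median of 73.8%.

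Spread was set against the 200 genes closest in mean level. The SD of Ifitm1 over cells was 3.71 on the log2(TPM + 1) scale, at percentile 100 among those genes, while Ifitm2 had an SD of 1.81, at percentile 86.5, and Ifitm3 had 0.94, at percentile 27.5.

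Among class I genes, the heavy chains stood above the other members. H2-K1 (ENSMUSG00000061232, chr17:33996017-34000347, minus strand) had 0.81, 240.7 and 1892 TPM in the lowest, median and highest cell and was seen in 49 cells. H2-D1 (ENSMUSG00000073411, chr17:35262730-35267499, plus strand) had 0, 145.6 and 743.5 TPM and was seen in 49. B2m (ENSMUSG00000060802, chr2:122147686-122153083, plus strand) had 0.135, 54.4 and 437.4 TPM and was seen in 48 cells. The missing cell for each heavy chain was the one with few genes. H2-K1 was above B2m in 41 cells and H2-D1 above B2m in 39, so the transcript of the shared light chain was usually the lower one per length.

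The peptide-loading genes were lower still. Tapbp (ENSMUSG00000024308, chr17:33915899-33929292, plus strand) had 0, 20.6 and 122.4 TPM in the lowest, median and highest cell and was seen in 43 cells, an exact 95% interval of 73.3% to 94.2%. Tap1 (ENSMUSG00000037321, chr17:34187553-34197225, plus strand) was seen in 6 cells, an interval of 4.53% to 24.3%, with at most 42.1 TPM. It was listed at 0 in 41 cells and passed 10 TPM in 2. These intervals cover counting error over cells only, and since depth is unknown a transcript listed at 0 may have been missed.

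H2-K1, H2-D1 and B2m were all seen in 48 cells, and Tapbp was seen with them in 42. Adding Tap1 left 6 cells. The 5 class I genes together made up a median of 0.0492% of TPM, with a range of 0.000143% to 0.276%.

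Irf1 (ENSMUSG00000018899, chr11:53770014-53778374, plus strand) lay between the heavy chains and B2m. It had 0, 91.4 and 728.3 TPM in the lowest, median and highest cell, was seen in 47 cells and reached 100 TPM in 24. Its SD of 2.14 on the log2(TPM + 1) scale was at percentile 61.0 among genes of like mean. The corresponding SD was 1.61 for H2-K1, 1.6 for H2-D1, 1.73 for B2m and 2.12 for Tapbp, at percentiles from 41.5 to 50.

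Ordered by median TPM, the genes ran Ifitm3, Ifitm2, Ifitm1, H2-K1, H2-D1, Irf1, B2m, Tapbp and Tap1. Neighbours below Ifitm3 overlapped widely. H2-K1 exceeded H2-D1 in 33 of 50 cells, with a median difference of 0.67 and an SD of 1.44 on the log2(TPM + 1) scale. H2-D1 exceeded Irf1 in 30 cells and Irf1 exceeded B2m in 33, with medians of 0.15 and 0.57 against SDs of 2.21 and 2.02. Each of these differences was smaller than its spread over cells, as was that of Ifitm2 over Ifitm1 (1.39, SD 3.23), of Ifitm1 over H2-K1 (1.64, SD 3.82) and of B2m over Tapbp (1.53, SD 2.51). Ifitm3 over Ifitm2 (2.02, SD 1.56) and Tapbp over Tap1 (3.84, SD 2.23) exceeded theirs.

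Libraries carried 7 i7 and 8 i5 index sequences, and levels were compared between cells of i7 indexes N704 to N707 (32 cells) and N708 to N710 (18 cells). B2m had medians of 77.0 and 28.5 TPM in the 2 sets and Irf1 had 125.5 and 68.3 TPM, with ranges that overlapped. For Ifitm3 the medians were 8045 and 6933 TPM, and for H2-K1 they were 251.7 and 211.5 TPM. Whether the index sets were handled apart is not stated in the labels, so several relations across cells are also given within them.

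Some of these transcripts resemble others. Of all 50-base windows in its annotated transcripts, Ifitm2 shared 48.5% with other genes, mainly Gm45717, which overlaps it, and other predicted genes not analysed here. The share was 10.0% for Ifitm3, 5.02% for Ifitm1, 9.63% for H2-K1, 12.8% for H2-D1, 2.87% for Tapbp and 0.442% for Tap1, and it was 0 for B2m and Irf1. With windows of 25 bases the share was 60.2% for Ifitm2, 25.4% for Ifitm3, 15.7% for Ifitm1, 31.7% for H2-K1 and 35.6% for H2-D1. The level of Ifitm2 is uncertain for that reason, and those of Ifitm1, Ifitm3, H2-K1 and H2-D1 are so in part. The sources used here do not say whether strand was used in counting, so reads of B2m, Tap1, Tapbp and Irf1 cannot be told apart from those of genes on the other strand that overlap them (Patl2, Psmb9, Gm19412 and Gm17334). Tapbp also overlaps Zbtb22 on its own strand.

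Other genes of the pathway were taken from lists made for this comparison. Of 12 further antigen processing genes 6 were seen in 25 or more cells, against 22.6% of all genes. The chaperone genes Canx and Calr were seen in 50 and 49 cells with median levels of 41.1 and 296 TPM, and Psme1 and Psme2, which encode the proteasome activator PA28, in 49 and 45 cells at 324.4 and 15.3 TPM. Of the immunoproteasome subunits, Psmb10 was seen in 37 cells, Psmb8 in 16 and Psmb9 in 9. Tap2, the partner of Tap1 in the transporter, was seen in no cell and reached at most 0.38 TPM, and Nlrc5, which encodes the class I transactivator, was also seen in none. Of 17 other class I heavy chain genes none was seen in 25 cells, 12 were seen in 10 or fewer and 3 in none, against 63.6% and 42.5% of all genes for the last 2 counts. The most frequent were H2-T23 in 24 cells and H2-Q10 in 23, both uncertain because 13.6% and 19% of their windows are shared.

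Of 9 interferon genes 8 were seen in no cell, against 42.5% of all genes. All 8, among them Ifng and Ifnb1, were listed at 0 in all 50 cells, and Ifne was seen in 1 cell at 84.4 TPM. Receptor transcripts were present. Ifngr1 and Ifngr2, both subunits of the interferon gamma receptor, were seen in 46 and 47 cells with median levels of 45.2 and 11.7 TPM. The type I receptor genes Ifnar1 and Ifnar2 were seen in 16 and 25 cells, and the lambda receptor gene Ifnlr1 in 15. Downstream, Jak1 was seen in 24 cells, Jak2 in 19 and Stat2 in 15, and the feedback inhibitor Socs1 was listed at 0 in all cells. Among other IRF genes, Irf3 was seen in 44 cells with a median of 70.3 TPM, Irf9 in 33 at 18.6 TPM and Irf8 in 28 at 1.94 TPM. Irf7, itself interferon-induced, was seen in 9 cells.

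Of 43 classical interferon-stimulated genes listed, 41 were in the table, and Mx2 and Rnf213 were not analysed here. Only 3 were seen in 25 or more cells, Lgals3bp in 46 at a median of 78.3 TPM, Ifi35 in 31 at 12.5 TPM and Trim25 in 25 at 1.04 TPM. That is 3 of 41 against the 22.6% of all genes seen in as many cells. Of the 41, 29 were seen in 10 or fewer cells, 12 of these in none, against 63.6% and 42.5% of all genes, and Isg15, Mx1, Gbp2, Gbp3 and Cxcl9 were listed at 0 in every cell. Cxcl10, a chemokine gene, was seen in 23 cells and reached 3214 TPM in 1. A cell had between 1 and 13 of these genes, with a median of 7, and this number went with the number of genes seen per cell (Spearman's rho 0.48).

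**Figure D2:**
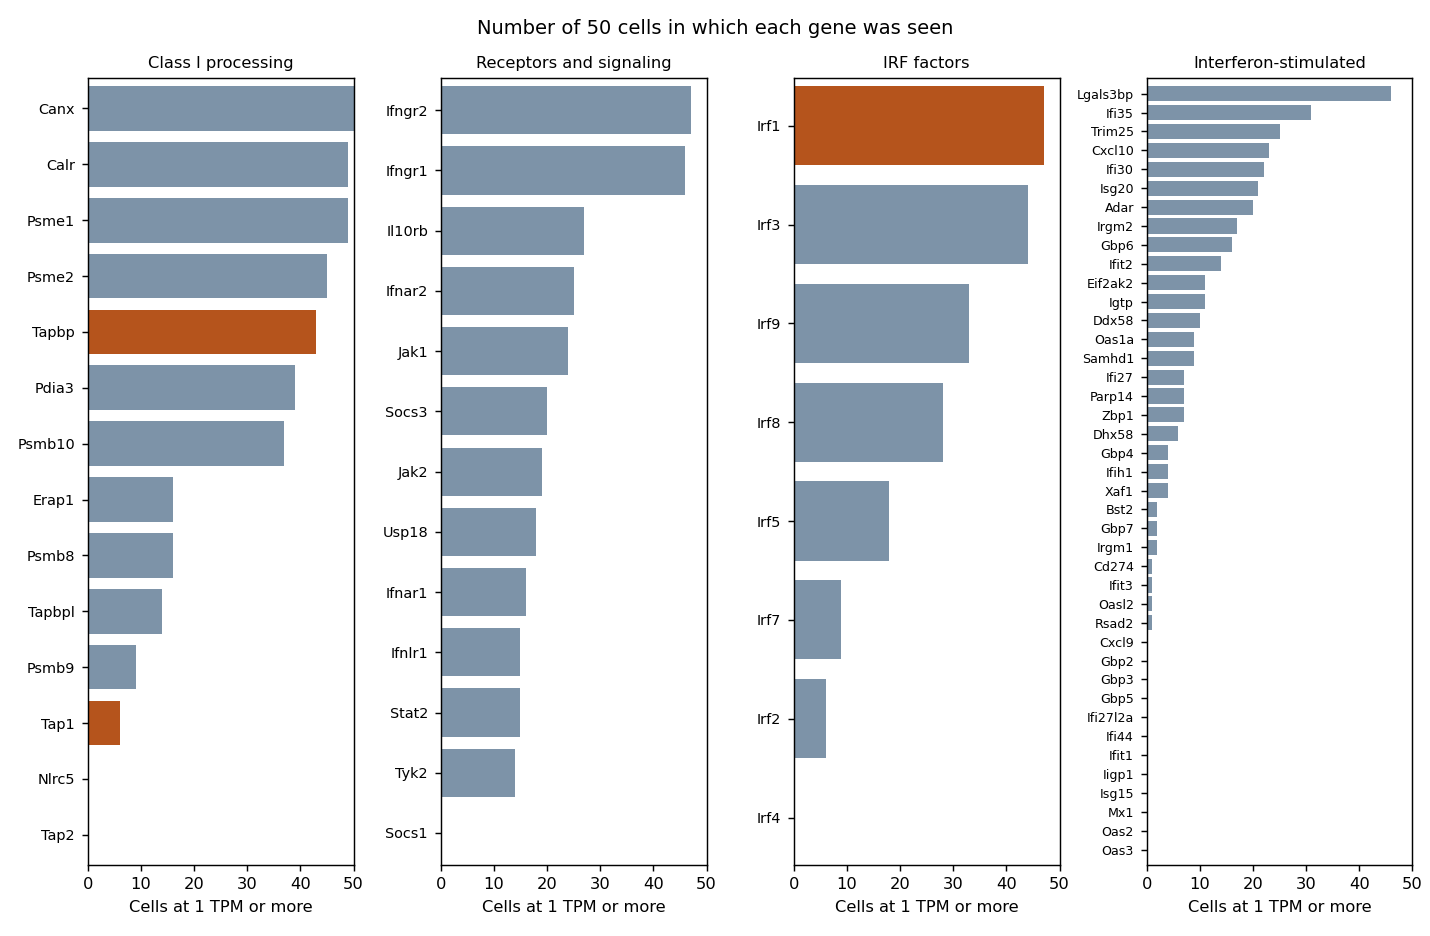
Number of the 50 cells in which the pathway genes drawn were seen at 1 TPM or more, with Tap1, Tapbp and Irf1 in orange. Canx, Ifngr2 and Lgals3bp head their lists at 50, 47 and 46 cells, Irf1 was seen in 47, and 12 of 41 interferon-stimulated genes were seen in none, against 42.5% of all genes.

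Relations across the 50 cells are given as Spearman's rho of log2(TPM + 1). They describe these cells and carry no p-value, since all points share 1 mouse and TPM share a common total. The clearest relation was between Ifitm1 and Ifitm3, with a rho of 0.73 (Pearson's r 0.69) and values of 0.84 and 0.48 in the N704 to N707 and N708 to N710 sets. Of the 50-base windows of Ifitm1, 1.42% are shared with Ifitm3, and the part of reads that fit both genes was not tested. Ifitm2 had a rho of 0.48 with Ifitm3 and 0.41 with Ifitm1. Over 10 pairs of class I genes the median rho was 0.20, with a range of -0.01 to 0.41. H2-D1 with B2m had 0.41, and 0.44 and 0.41 in the i7 sets. H2-K1 with H2-D1 had 0.37, but 0.45 and 0.05 in those sets, and 4.08% of the 50-base windows of H2-K1 are shared with H2-D1.

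The IFITM and class I genes varied largely apart. Their 15 cross pairs had a median rho of 0.14 and none passed 0.21. The mean of the 3 IFITM genes and that of the 5 class I genes had a rho of 0.21, and Pearson's r was 0.36 with all cells and -0.03 without the 2 most distant cells. Irf1 had rho values of 0.32 with B2m, 0.31 with H2-K1 and 0.16 with H2-D1, and the 8 pairs with Irf1 had a median of 0.19. Tap1 was above 0 in 9 cells, and with Irf1 its rho was 0.33 but Pearson's r was -0.07, so no relation is read from it.

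**Figure D3:**
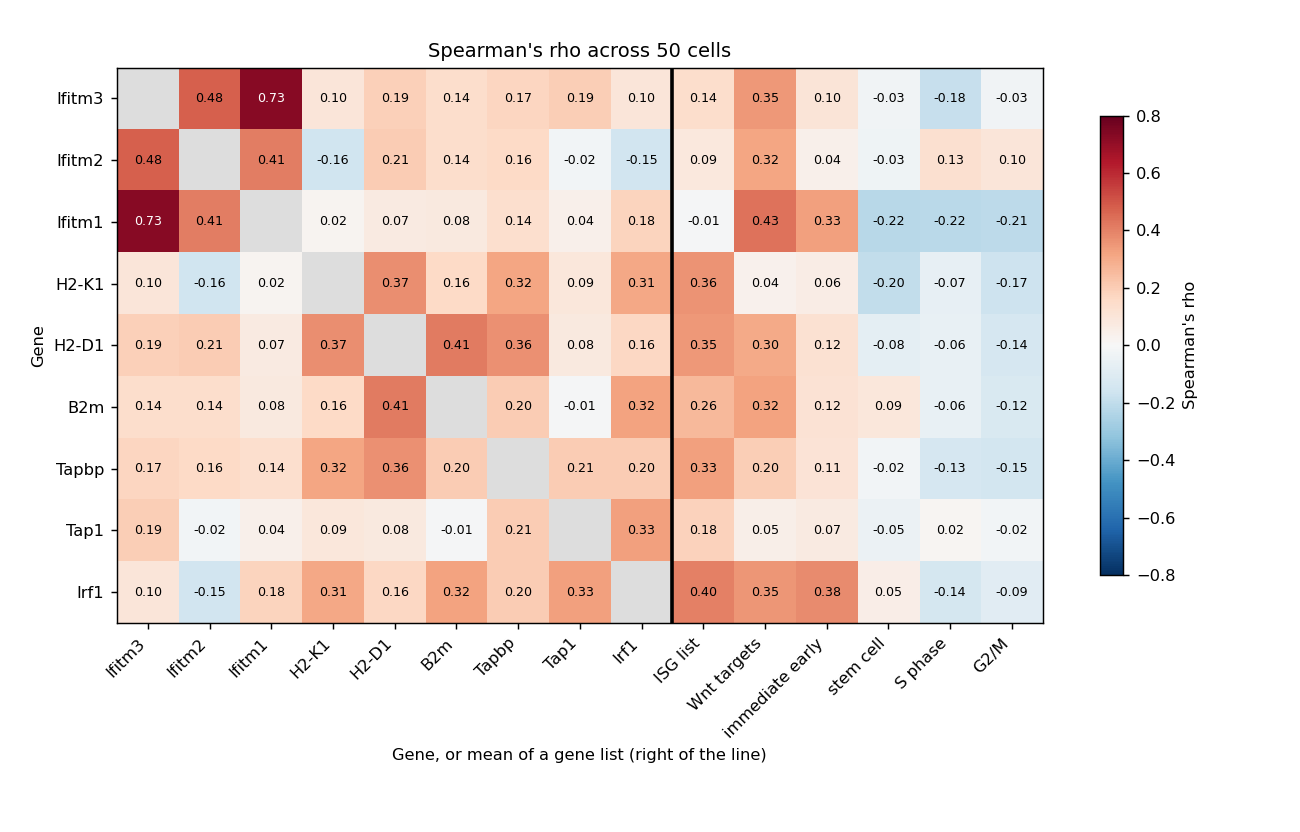
Spearman's rho over 50 cells between the 9 genes, and right of the line between each gene and the mean level of a gene list (ISG, interferon-stimulated genes). Red is positive and blue negative. The block of Ifitm1, Ifitm2 and Ifitm3 holds values from 0.41 to 0.73, the class I block values up to 0.41, and the fields between the 2 blocks do not pass 0.21.

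The lists of stem cell and cell cycle genes gave low values over all cells, and several changed sign between the index sets. The mean of 15 stem cell genes had a rho of -0.10 with the class I mean, -0.19 with the IFITM mean and 0.05 with Irf1, and Lgr5 itself, the gene for which cells were chosen, had -0.03, -0.08 and 0.01. Lgr5 was seen in 38 cells, with a median of 2.175 and at most 16.15 TPM, so its values rest on low levels. The S phase list (22 genes) gave 0.01, -0.19 and -0.14 and the G2/M list (30 genes) gave -0.12, -0.18 and -0.09. Among single genes, the 21 of S phase tested had median rho values of -0.02, -0.14 and -0.12 with the class I mean, the IFITM mean and Irf1. The 20 G2/M genes tested had -0.08, -0.11 and -0.14, and the 14 stem cell genes 0.06, -0.05 and 0.02. Over all genes these medians were 0.06, 0.05 and 0.07. With Ifitm2 alone the S phase and G2/M medians were 0.09 and 0.11, against 0.08. In the N704 to N707 and N708 to N710 sets the class I mean had -0.20 and 0.13 with stem cell genes, -0.16 and 0.22 with S phase genes and -0.33 and 0.20 with G2/M genes. Irf1 with S phase genes had -0.25 and 0.35. The IFITM mean had -0.26 and 0.03 with stem cell, -0.26 and -0.02 with S phase and -0.21 and -0.12 with G2/M genes. The cycle lists also went with the number of genes seen per cell, at 0.65 and 0.57. Given that number, the partial rho of G2/M genes with the class I mean was -0.22, and that of S phase genes with Irf1 was -0.24. Taken singly, Pcna, a replication clamp gene, had -0.33 with Ifitm1, while Mki67, a marker of cycling cells, had -0.02 with Ifitm1, 0.18 with Ifitm3 and -0.29 with Irf1.

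The IFITM mean varied with genes that Wnt signaling induces. With the mean of 15 Wnt target genes its rho was 0.45, and Pearson's r was 0.57 with all cells and 0.34 without the 2 cells with the most extreme list means. Within the N704 to N707 set rho was 0.50 and within N708 to N710 it was 0.17, and by i5 index it was 0.65 in the lower numbers (N502 to N505) and 0.28 in the higher ones (N506 and above). The i5 sets held 26 and 27 cells, and 3 averaged cells were counted in both. Among the 15 genes, Axin2, Rnf43, Znrf3, Lgr5 and Ascl2 are also on the stem cell list, so the 2 lists are not separate. The 15 genes had a median rho of 0.40, against 0.05 over 9163 genes, and 8 of them were at 0.3 or above, against 7.15% of all genes. These were Apcdd1 (0.55), Prox1 (0.51), Lef1 (0.47), Znrf3 (0.46), Tcf7 (0.44), Wif1 (0.44), Notum (0.43) and Nkd1 (0.40), of which Apcdd1, Znrf3, Wif1, Notum and Nkd1 encode feedback inhibitors of Wnt signaling and Lef1 and Tcf7 its nuclear factors. Axin2, another feedback gene, had 0.12. Taken singly, Ifitm1, Ifitm3 and Ifitm2 had rho values of 0.43, 0.35 and 0.32 with the list mean. Of the 15 genes, 8, 7 and 2 were at 0.3 or above with them, against 7.15%, 4.38% and 6.94% of all genes. The relation to single Wnt target genes was thus mainly that of Ifitm1 and Ifitm3.

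Prox1, a homeobox factor gene, was seen in 41 cells, with a median of 14.7 TPM. It had a rho of 0.58 with Ifitm1 and 0.44 with Ifitm3, but 0.03 with Ifitm2 and 0.15 with the class I mean. The corresponding values for the class I mean and the Wnt target list were a rho of 0.27 with 2 of 15 genes at 0.3 or above, against 5.48% of all genes. For Irf1 they were 0.35 with 5 of 15, against 7.63%. In the N704 to N707 and N708 to N710 sets the list had 0.15 and 0.58 with the class I mean, and 0.27 and 0.50 with Irf1. Within N708 to N710 both were thus above the 0.17 of the IFITM mean, so the order of the groups differed between the sets.

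The class I mean and Irf1 also varied with the mean of the interferon-stimulated genes. The rho of the list mean was 0.45 with the class I mean, 0.40 with Irf1 and 0.03 with the IFITM mean. With the class I mean it was 0.49 and 0.27 in the i7 sets, and with Irf1 it was 0.55 and 0.08. Single genes of the list had low values. The 13 frequent enough to be tested singly had a median rho of 0.09 with the class I mean, against 0.06 over all genes. Of these 13, 12 were above 0, and the mean of the frequent genes alone had a rho of 0.46 with the class I mean. With Irf1 the median was 0.05, against 0.07 over all genes, and 10 of the 13 were above 0. The other genes of the list were seen in too few cells to be tested singly. The GTPase gene Irgm2 had 0.54 with the class I mean, and Lgals3bp 0.32. Cxcl10, Gbp6 and Isg20 had 0.33, 0.32 and 0.31 with Irf1. For the 14 interferon receptor and signaling genes, the list mean had a rho of 0.40 with the class I mean (0.43 and 0.30 in the i7 sets), 0.33 with Irf1 and 0.29 with the IFITM mean. Of the 13 tested singly, Usp18, Ifngr2 and Ifngr1 reached 0.3 with the class I mean, at 0.38, 0.32 and 0.32, against 5.48% of all genes. Over 12 immune markers the list mean had rho values of 0.15, 0.15 and 0.16 with the class I mean, the IFITM mean and Irf1. Only 2 of the 12 were frequent enough to be tested singly. Csf1r had 0.13 with the class I mean, 0.33 with H2-K1 and 0.35 with Irf1, and Cd68 had 0.15, 0.13 and -0.06. Of the fibroblast markers, Pdgfra had 0.35 with Irf1 and Acta2 had -0.04. The part of other cells in these relations was not tested.

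Irf1 also varied with immediate early genes, which cells induce rapidly on a stimulus without new protein synthesis. The mean of 12 such genes had a rho of 0.38 with Irf1 (0.30 and 0.45 in the i7 sets), 0.25 with the IFITM mean and 0.08 with the class I mean. Pearson's r with Irf1 was 0.39 with all cells and 0.21 without the 2 most distant cells. Of the 12 genes 5 were at 0.3 or above, against 7.63% of all genes, namely Junb (0.62), Jund (0.48), Ier2 (0.45), Zfp36 (0.35) and Egr1 (0.31). Junb, an AP-1 subunit gene, was seen in all 50 cells, with a median of 1795 TPM.

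**Figure D4:**
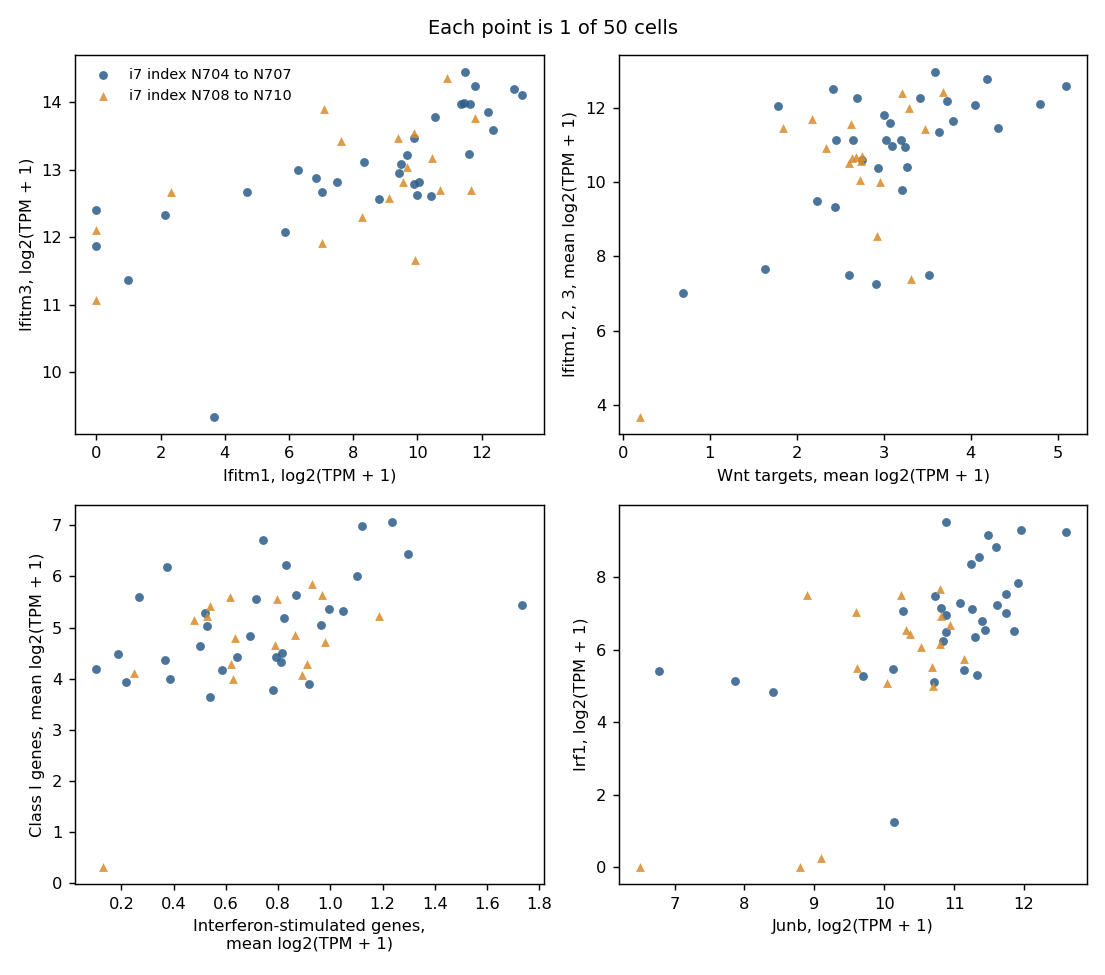
Each point is 1 of 50 cells, with i7 indexes N704 to N707 as blue circles and N708 to N710 as orange triangles, and all axes in log2(TPM + 1). Ifitm3 against Ifitm1 has a rho of 0.73, the IFITM mean against the Wnt target mean 0.45, the class I mean against the interferon-stimulated gene mean 0.45, and Irf1 against Junb 0.62. The lowest point in the panels of the IFITM mean and the class I mean is the cell with few genes.

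Genes most like each group were picked by rho over the 50 cells, among those seen in 20% of cells with the same sign in both i7 sets. Nearest to the IFITM mean was Ifitm7 at 0.97, a further member of the family seen in 49 cells with a median of 39.5 TPM. Its level was a median of 4.21% of that of Ifitm1, and its rho with Ifitm1 was 0.92. No 50-base window was shared between Ifitm7 and other genes, but 6.09% of its 25-base windows were, in part with Ifitm1 and Ifitm2, so its reads are uncertain. Next came Ptn, which encodes the growth factor pleiotrophin, at 0.71, Tecr at 0.66, and Ly6e at 0.63, an interferon-inducible surface protein gene seen in 50 cells with a median of 1511 TPM. Tbx3 (0.61) gave 0.80 in the N704 to N707 set and 0.09 in N708 to N710. Myl12a (0.60), Vim (0.59), Pea15a (0.58), the noncoding 2700046A07Rik (0.58) and Gdf11 (0.58) followed. Ptn (0.79 and 0.37), Tecr (0.74 and 0.41), Vim (0.695 and 0.32) and Gdf11 (0.73 and 0.16) were also lower in N708 to N710. Ly6e, Myl12a, Pea15a and 2700046A07Rik stayed between 0.51 and 0.63 in both sets. At the other end stood Plac8 (-0.56), Grtp1 (-0.53), the brush border myosin gene Myo1a (-0.51), Phgr1 (-0.51) and Baiap2l2 (-0.50). In the 2 i7 sets Plac8 had -0.65 and -0.27, Myo1a -0.60 and -0.19, and Phgr1 -0.60 and -0.26. Baiap2l2 had -0.67 and -0.07, and Grtp1 -0.52 and -0.55. Phgr1 was seen in only 11 cells and 2700046A07Rik in 16.

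The gene nearest to the class I mean was Arhgdia, which encodes an inhibitor of small GTPases, at 0.62 (0.54 and 0.76 in the i7 sets). It was followed by Ubxn6 (0.59), Itfg1 (0.58), the focal adhesion kinase gene Ptk2 (0.55), Lcn2 (0.54), Dctn3 (0.54), Irgm2 (0.54), Tpm1 (0.52), Pgd (0.52) and Serf2 (0.51). Lcn2 encodes lipocalin 2, which binds bacterial siderophores, and was seen in 41 cells, with a median of 281.5 TPM. The lowest were Sh2d6 (-0.52), Rbm38 (-0.42), Zfp280b (-0.39), Gcdh (-0.39) and Fry (-0.39). Sh2d6 was seen in 10 cells, Fry in 11, Ptk2 in 16 and Irgm2 in 17, so their values rest on few cells. Tpm1 had 0.66 and 0.20 in the i7 sets.

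For Irf1 the nearest gene was F11r at 0.66 (0.61 and 0.67 in the i7 sets), which encodes a junctional adhesion molecule of tight junctions, followed by Junb. The clock gene Per1 had 0.56 and the autophagy receptor gene Sqstm1 0.55. Dync1li2 (0.61), Mbd2 (0.61), Yy1 (0.56), Dennd4c (0.56), Dynll2 (0.56) and Seh1l (0.55) completed the 10. The lowest was Guca2b (-0.48), which encodes uroguanylin and was seen in only 12 cells. Lyar, Ndufaf8, Sprr2b and Fam118b were all at -0.41. In the i7 sets Lyar had -0.45 and -0.15, and Ndufaf8 -0.49 and -0.09. These lists were the extremes of all genes ranked, so their values are descriptions chosen for their size.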

How the data were processed

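Single cells of 1 mouse were profiled by Bead-seq. The authors deposited 1 table of TPM for 24410 Ensembl IDs and 56 libraries, made with Bowtie2 2.2.9, RSEM 1.2.31 and bcl2fastq 1.8.4 on GRCm38.p4, per the submitters' processing notes, which name no role or order. The sources used here give no settings, no annotation release and no word on strand. The table held 0 mitochondrial genes.

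Symbols and coordinates came from GENCODE M21 (GRCm38), which matched 24235 IDs. Library pairs with Pearson's r above 0.9 on log2(TPM + 1) were averaged, which gave 50 cells. Intervals for shares are exact (Clopper-Pearson, 95%). Correlations used log2(TPM + 1), with a pseudocount of 1, over genes seen (1 TPM) in 20% of cells where single genes are ranked, and a list's level was the mean over its genes. A rho of 0.3 or above was counted, and rank correlations were checked on simulated data. Doublets were not called, since wells were sorted to hold 1 cell and no counts were at hand.

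Members and lists were chosen with earlier results of these data known, and the promoter motifs after the sequences were seen. Named genes were the members, genes of the lists, chiefly the 3 most frequent of each, and the 10 highest and 5 lowest by rho with each group that had the same sign in both i7 sets. A few list genes are not reported here. Other list genes were named after their values were seen. Alternatives were Pearson's r, thresholds of 0 and 10 TPM, partial rho given genes per cell, pseudocounts of 0.1 and 10, 56 libraries as cells, rescaled TPM, frequent list genes only, and cells or i5 indexes left out. Computations used SciPy 1.17.1, pandas 2.3.3, numpy 2.4.6 and matplotlib 3.10.9 under Python 3.11.15.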

Additional observations from a re-analysis of the deposited data

How the results depend on the processing

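Over 25 relations and 418 alternative values, 408 moved by less than 0.143 (1 over the square root of 49), 10 moved by more and 0 of those with a rho of 0.3 or above changed sign. Some of the 408 could not move. A pseudocount leaves the rho of 2 single genes unchanged, and all Wnt target and immediate early genes were already frequent. The i7 sets were not among the alternatives. Between them Irf1 with the interferon-stimulated list had 0.55 and 0.08, and the class I mean with G2/M genes -0.33 and 0.20. Leaving out the cell with the highest Defa24, and all alternatives for the Wnt target, immediate early and interferon-stimulated lists and for Prox1, were chosen after seeing the data. With Pearson's r in place of rho, H2-K1 with H2-D1 gave 0.5975, the class I mean with the IFITM mean 0.3586, with stem cell genes 0.1036, with Wnt targets 0.4762 and with immediate early genes 0.2396. The IFITM mean then gave 0.022 with stem cell, 0.00904 with S phase, 0.00416 with G2/M and 0.4664 with immediate early genes. Without i5 index N503, the IFITM mean with immediate early genes had a rho of 0.0899. The cause of these shifts was not tested. For levels, 71 of 72 alternatives moved by less than 1 SD over cells or, for numbers of cells, less than 1.5 times, and at 10 TPM Tap1 was seen in 2 cells. Median TPM of Ifitm3 was 14440 where ribosomal protein genes and Gm10925 were left out of the total. No paired analysis was possible because the labels give 1 group. Depth is unknown, so transcripts listed at 0 may have been missed.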

Other observations

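MHC class II genes, which interferon gamma can induce in intestinal epithelium, were seen in few cells. Of 9 such genes none was seen in more than 7 cells, where 63.6% of all genes were seen in 10 or fewer, and 5 were seen in none, against 42.5% of all genes, among them the transactivator gene Ciita, which reached at most 0.31 TPM. The invariant chain gene Cd74 was the most frequent, in 7 cells with at most 19.6 TPM. Of the other IFITM family members, Ifitm6 was seen in 3 cells and Ifitm10 in 2, and Ifitm5 was listed at 0 in all cells. The interferon-induced protease gene Usp18 was seen in 18 cells, with at most 274.8 TPM.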
